A study of Homo sapiens with 45 samples.

Results

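CD79A, CD79B and MZB1 are genes of the B lineage whose mRNA was present in human T-cell acute lymphoblastic leukaemia (T-ALL) lines. They were taken by name, as 3 of the 38557 genes measured in 45 libraries. They were selected on their measured TPM (transcript abundance scaled by gene length and library size) in Jurkat cells, where CD79A and MZB1 were lower after loss or inhibition of the BAF complex. All Jurkat values of the 3 genes are therefore given as descriptions, without a test. The choice did not name changes in the other 3 lines, and these were tested. Earlier results of these data were known at the choice, so the tests are not an independent check.

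The study sequenced polyadenylated RNA from 4 T-ALL lines, in 15 groups of 3 libraries that the labels call biological replicates. Jurkat cells that expressed Cas9 were transduced with guides against ARID1A (gARID1A), against ARID1A and ARID1B (gARID1A_1B), against SMARCA4 (gSMARCA4), against SMARCA4 and SMARCA2 (gSMARCA4_A2), or against the AAVS1 safe-harbour site as control (gAAVS1). All 5 guide groups were selected in puromycin for 4 days and collected on day 10. Jurkat cells were also given 1 uM BRM014, an inhibitor of the SMARCA4 and SMARCA2 ATPases, or 0.01% DMSO, for 6 hours or 8 days, and 3 further T-ALL lines (KOPT-K1, CCRF-CEM, TALL-1) had the same agents for 6 hours only. The cells of a guide group were a transduced pool in which some cells may keep the targeted gene, and in such bulk RNA fewer cells expressing a gene and less RNA per cell cannot be told apart. The 4 targeted genes code for parts of BAF, which slides and ejects nucleosomes, SMARCA4 and SMARCA2 being its alternative motors.

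CD79A and CD79B encode Ig-alpha and Ig-beta, the heterodimer that carries the immunoglobulin of the B cell receptor to the surface and signals through a tyrosine motif (ITAM) in each tail. MZB1 encodes a chaperone of the endoplasmic reticulum that works with HSP90B1 (GRP94) in the assembly and secretion of immunoglobulin, and is abundant in marginal zone B cells and plasma cells. CD79A is used in pathology to mark B-lineage leukaemia, and it is also known from a subset of T-ALL. In RefSeq annotation of GRCh38.p14, CD79A lies at chr19:41877279-41881372, CD79B at chr17:63928740-63932331 and MZB1 at chr5:139387467-139389913. In the GENCODE v29 annotation no gene on the opposite strand overlaps any of them, which matters for Jurkat because its library kit did not keep strand. CD79B shares part of its span with AC127029.3 on the same strand, so reads from the shared part could belong to either.

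The 250 bases before the start of CD79A and of MZB1 are shown because both genes were below gAAVS1 in all 4 BAF guide groups and below DMSO at 8 days of BRM014 in Jurkat. RefSeq promoter windows of GRCh38.p14 were matched for 2 of the 3 genes, CD79A at chr19:41877029-41877278 on the plus strand and MZB1 at chr5:139389914-139390163 on the minus strand. Capitals mark the letters CANNTG, the E-box read by basic helix-loop-helix proteins such as TCF3 and TCF12.

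CD79A: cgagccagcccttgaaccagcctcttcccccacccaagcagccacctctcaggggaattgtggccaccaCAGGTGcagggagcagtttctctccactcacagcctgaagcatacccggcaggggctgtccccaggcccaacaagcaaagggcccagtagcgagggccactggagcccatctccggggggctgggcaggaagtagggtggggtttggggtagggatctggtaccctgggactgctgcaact

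MZB1: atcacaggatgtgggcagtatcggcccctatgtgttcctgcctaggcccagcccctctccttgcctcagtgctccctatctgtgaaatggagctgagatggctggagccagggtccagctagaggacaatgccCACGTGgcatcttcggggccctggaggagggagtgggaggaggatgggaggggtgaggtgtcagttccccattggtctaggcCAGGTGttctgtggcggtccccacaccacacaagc

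The CD79A window held 1 E-box, CAGGTG at -181 to -176 from the start. The MZB1 window held 2, CACGTG at -117 to -112 and CAGGTG at -35 to -30. E-boxes are common, with at least 1 in 61.8% of 35116 promoter windows of this length. Both windows also held 1 match to TGTGGT, the RUNX site, found in 11% of windows. Each match was on the reverse strand, at -185 to -180 in CD79A, where it overlaps the E-box, and at -11 to -6 in MZB1. Both strands were searched for all motifs. The EBF site, in 1.06% of all windows, was in neither. The ETS core CCGGAA, in 14.5% of all windows, was in neither. The GATA site AGATAA, in 9.17%, and a TATA box spelled TATAAA, in 10.7%, were not found either. G and C made up 64% of the CD79A window and 61.2% of the MZB1 window, against a median of 58%, and each held 4 CpG sites against a median of 11. All positions are counted from the RefSeq start. In GENCODE v29 CD79A starts at base 41877120 and MZB1, on the minus strand, at base 139390081, both inside these windows. There the MZB1 matches lie within the gene. These matches describe the letters and do not show that a factor binds.

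Whole reads recovered from the deposited TPM put the depth (in units of 1e+06 reads) at 29.7 to 47.9 in Jurkat libraries and 19.7 to 27 in the others. Markers of T cells summed to between 1480 and 4370 TPM in every library, with 11 to 13 of 13 at a mean of at least 1 TPM in each group. SMARCA4 mRNA was 44.2 ± 1.63 TPM in gSMARCA4 and 49.9 ± 2.35 TPM in gSMARCA4_A2, against 97.5 ± 2.41 TPM in gAAVS1 (SD, n = 3). ARID1B was 11.9 ± 0.993 TPM in gARID1A_1B and 22.7 ± 0.525 TPM in gAAVS1. ARID1A was 83.1 ± 3.38 TPM in gARID1A and 101 ± 5.07 TPM in gARID1A_1B, against 94.4 ± 0.697 TPM in gAAVS1, and SMARCA2 was 22.4 ± 0.288 TPM in gSMARCA4_A2 and 21.8 ± 0.931 TPM in gAAVS1. The mRNA therefore did not show the loss of ARID1A in gARID1A_1B or of SMARCA2 in gSMARCA4_A2, and these groups go by their labels.

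Without BAF loss or inhibition, the 3 genes stood at different levels in the lines that could be tested against each other. MZB1 had the highest level of the 3 in every library. It had 1055, 1013 and 823 TPM in TALL-1 DMSO libraries, 621, 543 and 519 TPM in CCRF-CEM DMSO libraries, and 467, 477 and 487 TPM in KOPT-K1 DMSO libraries. TALL-1 stood above both other lines with no overlap. TALL-1 over CCRF-CEM was 0.78 ± 0.14 on the log2 scale of TPM + 1 (SE, adjusted p = 1.9e-04) and TALL-1 over KOPT-K1 was 1.01 ± 0.14 (adjusted p = 1.33e-05). CCRF-CEM over KOPT-K1 was 0.23 ± 0.14, which did not pass limma with Benjamini-Hochberg adjustment (adjusted p = 0.178, 95% interval -0.08 to 0.54). Between these lines 62.5% to 70.5% of all 16241 genes tested passed in either direction, 67.6% for TALL-1 against CCRF-CEM, so a difference between lines was common. Without overlap, 33.5% of genes were higher and 36.3% lower in TALL-1 than in CCRF-CEM, 38% each way against KOPT-K1, and 34.9% higher in CCRF-CEM than in KOPT-K1.

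CD79A, the Ig-alpha subunit, was lowest in TALL-1. It had 24.4, 25.9 and 15.2 TPM in TALL-1 DMSO libraries, 126, 127 and 103 TPM in CCRF-CEM and 91.5, 87.5 and 85.4 TPM in KOPT-K1. TALL-1 was lower than CCRF-CEM by a log2 difference of -2.42 ± 0.18 (adjusted p = 1.28e-08) and lower than KOPT-K1 by -2 ± 0.18 (adjusted p = 1.09e-07). CCRF-CEM and KOPT-K1 did not overlap either, but their difference of 0.42 ± 0.18 missed the threshold (adjusted p = 0.0571). Alternatives gave adjusted p-values from 0.00418 to 0.086, and the difference passed in a fit of the compared groups alone, with the replicate block and in limma-voom on reads.

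CD79B, the Ig-beta subunit, was nearly absent from TALL-1. Its TALL-1 libraries were listed at 0 except DMSO replicate 2, at 0.0859 TPM from 1 read. CCRF-CEM DMSO libraries had 23.8, 22.6 and 25.3 TPM and KOPT-K1 DMSO libraries had 13.6, 9.49 and 10.5 TPM. TALL-1 DMSO had 1 read in all, against 739 in CCRF-CEM DMSO, which was 825-fold more at equal depth (exact 95% interval 148 to 3.26e+04, counting error only). KOPT-K1 DMSO had 341 reads, 386-fold more than TALL-1 DMSO (68.7 to 1.53e+04). CCRF-CEM was higher than KOPT-K1 by 1.04 ± 0.11 (adjusted p = 9.97e-07). TALL-1 thus had CD79A and MZB1 mRNA with almost no CD79B.

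**Figure D1:**
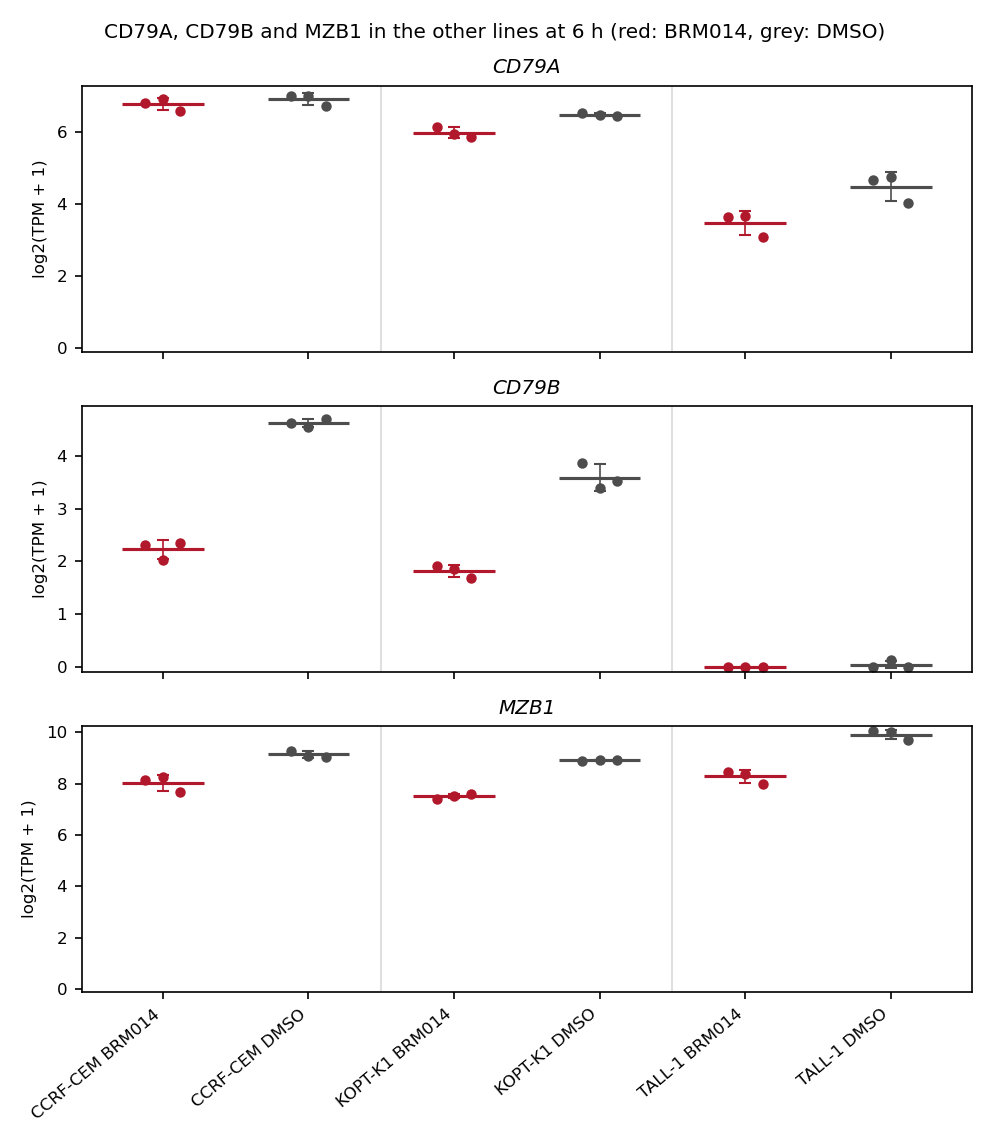
Levels of CD79A, CD79B and MZB1 in CCRF-CEM, KOPT-K1 and TALL-1 after 6 hours of BRM014 (red) or DMSO (grey), on a log2(TPM + 1) axis. Points are libraries, the long line is the mean and the bar its SD (n = 3). MZB1 is lower with BRM014 in all 3 lines, CD79B is at or near 0 in TALL-1, and CD79A overlaps between BRM014 and DMSO in CCRF-CEM.

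BRM014 for 6 hours asked how these genes respond when both BAF ATPases are inhibited, in 3 lines whose changes the choice did not name. MZB1 fell in all 3 lines, CD79B fell in both lines that express it, and CD79A fell in TALL-1 and, less securely, in KOPT-K1. In CCRF-CEM CD79A passed as lower only with the replicate as a block. Genes called lower made up 20.9% of those tested in CCRF-CEM, 15.2% in KOPT-K1 and 19.3% in TALL-1, and genes lower without overlap 21.1%, 21.6% and 23.2% in the same order. Genes called lower in all 3 lines, as MZB1 was, made up 7.11%.

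MZB1 had 279, 305 and 201 TPM in BRM014-treated CCRF-CEM, against 621, 543 and 519 TPM in DMSO. It fell by 1.11 ± 0.14 on the log2 scale (adjusted p = 1.29e-05). In KOPT-K1 it had 170, 182 and 190 TPM with BRM014 and 467, 477 and 487 TPM with DMSO, and it fell by 1.40 ± 0.14 (adjusted p = 2.10e-06). All treated libraries were below all controls in both lines. In TALL-1, where it was highest, MZB1 had 347, 333 and 255 TPM with BRM014 and 1055, 1013 and 823 TPM with DMSO. It fell by 1.63 ± 0.14 (adjusted p = 2.55e-07), and here too the groups did not overlap. The treated TALL-1 libraries remained above all treated KOPT-K1 libraries.

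The size of the MZB1 fall was compared between lines. Genes whose effect differed made up 18.3% of those tested between CCRF-CEM and KOPT-K1, 20.4% between TALL-1 and CCRF-CEM and 21.4% between TALL-1 and KOPT-K1. For MZB1 none of the 3 differences passed. TALL-1 minus CCRF-CEM was -0.51 ± 0.20 (adjusted p = 0.0907, interval -0.96 to -0.07), TALL-1 minus KOPT-K1 was -0.23 ± 0.20 (adjusted p = 0.484, interval -0.67 to 0.21), and CCRF-CEM minus KOPT-K1 was 0.28 ± 0.20 (adjusted p = 0.386, interval -0.16 to 0.72). The first of these passed without replicate 3 in both groups, at -0.61, an alternative chosen after the data were seen whose adjusted p was 0.00117, within a range over alternatives of 0.00117 to 0.177.

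CD79B had 3.97, 3.06 and 4.11 TPM in BRM014-treated CCRF-CEM and 23.8, 22.6 and 25.3 TPM in DMSO-treated CCRF-CEM. It fell by 2.41 ± 0.11 on the log2 scale (adjusted p = 4.57e-10), the 34th most lowered of 16241 genes. In KOPT-K1 it had 2.75, 2.62 and 2.21 TPM with BRM014 and 13.6, 9.49 and 10.5 TPM with DMSO, a change of -1.78 ± 0.11 (adjusted p = 1.62e-08). Treated and control libraries were well apart in both lines. The CD79B effect was more negative in CCRF-CEM than in KOPT-K1 by -0.63 ± 0.16 (adjusted p = 0.0136). That difference did not pass with a pseudocount of 0.1, at -0.57, or in limma-voom on recovered reads, at -0.56, with adjusted p-values from 0.00518 to 0.236 over the alternatives. In TALL-1 its level was too low to assess a response.

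CD79A had 111, 120 and 95.3 TPM in BRM014-treated CCRF-CEM and 126, 127 and 103 TPM in DMSO-treated CCRF-CEM. The groups overlapped, and the change of -0.13 ± 0.18 did not pass (adjusted p = 0.597, 95% interval -0.53 to 0.27). Replicate numbers paired the CCRF-CEM libraries, and each treated library was below its own control. With the replicate as a block the change of -0.13 passed (adjusted p = 0.029). In KOPT-K1 CD79A had 69.7, 60.0 and 57.1 TPM with BRM014, all below the 91.5, 87.5 and 85.4 TPM with DMSO. It fell by 0.50 ± 0.18 (adjusted p = 0.043), a call that was lost in 4 of 10 alternatives and in 5 of the 6 fits that left out 1 library (adjusted p from 0.0438 to 0.13). In TALL-1 CD79A had 11.5, 11.7 and 7.46 TPM with BRM014 and 24.4, 25.9 and 15.2 TPM with DMSO. It fell by 1.01 ± 0.18 there (adjusted p = 3.37e-04), without overlap.

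The CD79A effect was more negative in TALL-1 than in CCRF-CEM by -0.88 ± 0.26 (adjusted p = 0.0249), which missed the threshold when only the compared groups were fitted (adjusted p = 0.0691) and in 6 of 12 fits that left out 1 library. Its differences of -0.51 ± 0.26 between TALL-1 and KOPT-K1 (adjusted p = 0.187) and 0.37 ± 0.26 between CCRF-CEM and KOPT-K1 (adjusted p = 0.372) did not pass. The library numbered 3 had the lowest CD79A level in each of the 6 groups of these lines.

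The ratio of the 2 receptor subunits was higher with BRM014. CD79A over CD79B, both in TPM, had a median of 28.0 in BRM014-treated CCRF-CEM (23.2 to 39) and 5.30 in DMSO-treated CCRF-CEM (4.08 to 5.63). In KOPT-K1 it was 25.3 with BRM014 (22.9 to 25.8) and 8.15 with DMSO (6.71 to 9.23). The treated and control ratios did not overlap in either line.

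In Jurkat all 3 genes were present, and the changes of CD79A and MZB1 there guided the choice. Jurkat was measured with another kit and table, so its levels were not tested against those of the other lines. At 6 hours of BRM014, MZB1 had 56.8, 54.7 and 52.5 TPM, against 210, 197 and 227 TPM with DMSO, a log2 fold change of -1.93 ± 0.07 (SE). CD79B had 1.89, 1.92 and 1.64 TPM with BRM014 and 3.4, 5.17 and 4.80 TPM with DMSO, a change of -0.94 ± 0.11. These 2 genes did not overlap between the groups, as was so for 22.5% of the 17936 genes tested in the lower direction. CD79A had 12.1, 9.00 and 11.5 TPM with BRM014 and 17.8, 11.5 and 14.9 TPM with DMSO. Its groups overlapped, with a change of -0.39 ± 0.15.

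After 8 days of BRM014 all 3 genes were below DMSO without overlap, where again 22.5% of genes were. CD79A had 1.00, 1.33 and 1.07 TPM with BRM014 and 11.3, 12.3 and 8.15 TPM with DMSO, a change of -2.42 ± 0.15 and a mean 9.32-fold lower. MZB1 had 8.95, 10.2 and 10.2 TPM with BRM014 and 209, 169 and 164 TPM with DMSO, a change of -4.07 ± 0.07 and a mean 18.5-fold lower. It was the 4th most lowered of the 17936 genes, and CD79A the 30th, ranks of genes that were chosen for falling in Jurkat. CD79B had 0.835, 1.34 and 1.18 TPM with BRM014 and 3.38, 3.24 and 4.00 TPM with DMSO, a change of -1.10 ± 0.11. The effect at 8 days minus that at 6 hours was -2.03 ± 0.21 for CD79A, -2.14 ± 0.10 for MZB1 and -0.16 ± 0.16 for CD79B. CD79A thus overlapped with DMSO at 6 hours and was far below it at 8 days. The change of CD79B was close at both times on the log2 scale of TPM + 1, which understates changes of low genes. Its mean TPM was 2.45-fold lower at 6 hours and 3.17-fold lower at 8 days.

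**Figure D2:**
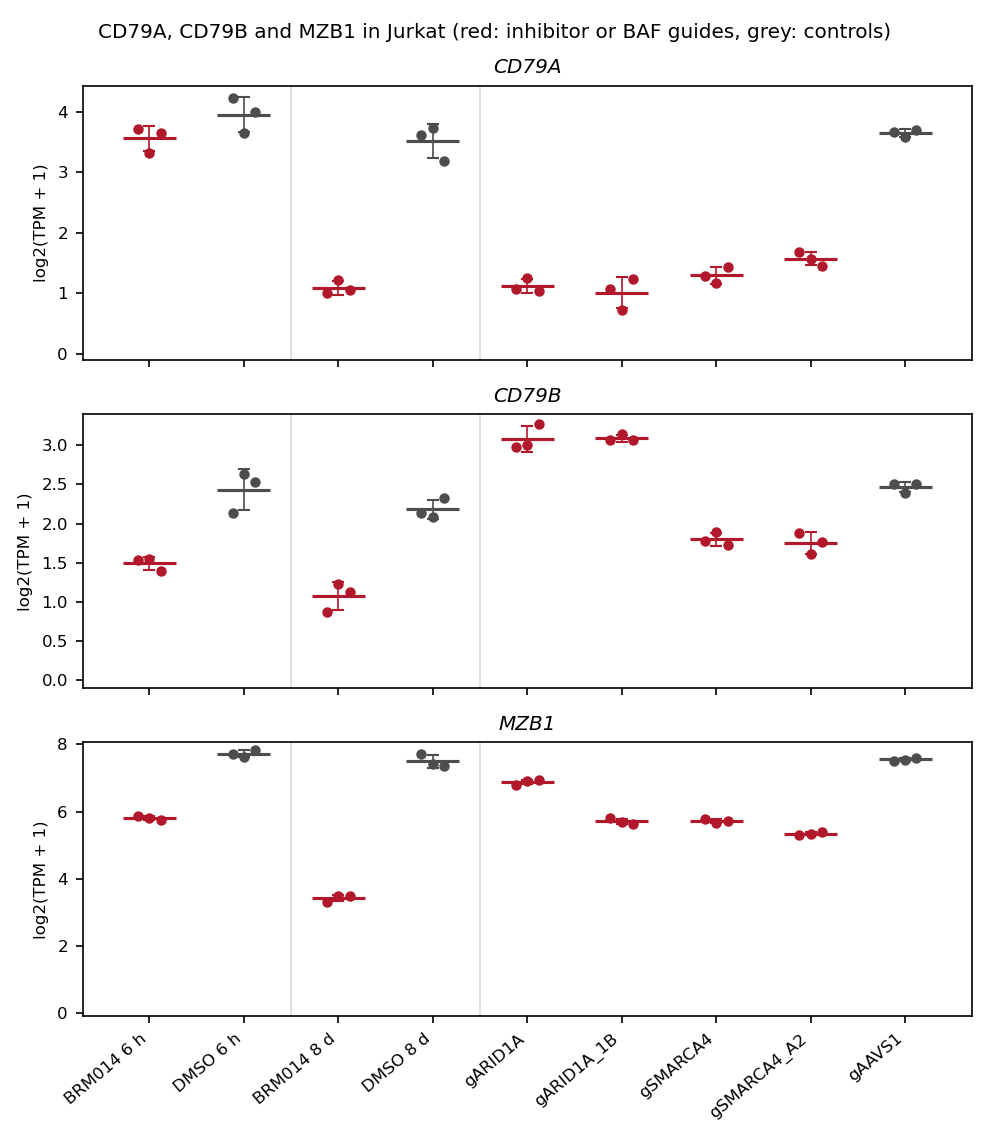
Levels of CD79A, CD79B and MZB1 in the 9 Jurkat groups on a log2(TPM + 1) axis, with inhibitor and BAF guide groups in red and DMSO and gAAVS1 in grey. Points are libraries, the long line is the mean and the bar its SD (n = 3). CD79A is low in all 4 BAF guide groups and after 8 days of BRM014, and CD79B is above gAAVS1 in gARID1A and gARID1A_1B and below it in gSMARCA4 and gSMARCA4_A2.

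The guide groups separated the 2 partners of the CD79 pair. CD79A had 1.10, 1.39 and 1.07 TPM in gARID1A and 1.11, 0.657 and 1.35 TPM in gARID1A_1B, against 11.7, 11.0 and 12.0 TPM in gAAVS1. It had 1.44, 1.24 and 1.70 TPM in gSMARCA4 and 2.2, 1.98 and 1.75 TPM in gSMARCA4_A2. All 12 libraries were far below gAAVS1, with 13 to 39 reads each against 150 to 255 in gAAVS1 libraries. The log2 fold changes were -2.53 in gARID1A, -2.64 in gARID1A_1B, -2.36 in gSMARCA4 and -2.08 in gSMARCA4_A2 (SE 0.15 each), and mean TPM was 9.77-fold, 11.2-fold, 7.92-fold and 5.86-fold lower in the same order. CD79A was the 2nd most lowered gene in gARID1A, the 5th in gARID1A_1B, the 11th in gSMARCA4 and the 17th in gSMARCA4_A2. At 6 hours of BRM014 it was the 1958th. Ranks in Jurkat are descriptions, as the gene was chosen for falling there. Genes lower without overlap made up 23.8% of those tested in gARID1A, 30.3% in gARID1A_1B, 21.1% in gSMARCA4 and 24.5% in gSMARCA4_A2. The fitted changes of CD79A grow when the pseudocount is smaller, to between -2.5 and -3.41 with 0.1.

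CD79B went in opposite directions between the ARID1 and the SMARCA guide groups. It had 6.85, 6.99 and 8.67 TPM in gARID1A and 7.35, 7.82 and 7.34 TPM in gARID1A_1B, against 4.68, 4.25 and 4.69 TPM in gAAVS1. These 6 libraries were above every gAAVS1 library, with changes of 0.61 ± 0.11 and 0.62 ± 0.11. Genes higher without overlap made up 15.5% in gARID1A and 23.4% in gARID1A_1B. CD79B had 2.42, 2.70 and 2.32 TPM in gSMARCA4 and 2.69, 2.05 and 2.39 TPM in gSMARCA4_A2, all below gAAVS1, with changes of -0.67 ± 0.11 and -0.72 ± 0.11. The gSMARCA4 libraries were below the gARID1A libraries by -1.28 ± 0.11, and the gSMARCA4_A2 libraries below the gARID1A_1B libraries by -1.34 ± 0.11, without overlap in either case, as was so for 15.5% and 17.9% of genes. All 4 groups share the gAAVS1 libraries.

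The CD79A to CD79B ratio followed from both. Its median was 0.161 in gARID1A and 0.151 in gARID1A_1B, 0.597 in gSMARCA4 and 0.818 in gSMARCA4_A2, against 2.56 in gAAVS1. With BRM014 in Jurkat it was 6.42 at 6 hours, against 3.10 with DMSO, and 0.994 at 8 days, against 3.35 with DMSO. CD79A was the more abundant subunit in all 9 control libraries of Jurkat and the less abundant in all 12 BAF guide libraries.

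MZB1 was graded among the guide groups. It had 111, 119 and 121 TPM in gARID1A, 54.6, 50.5 and 48.5 TPM in gARID1A_1B, 53.9, 49.9 and 52.1 TPM in gSMARCA4 and 38.4, 39.1 and 40.7 TPM in gSMARCA4_A2, against 182, 184 and 193 TPM in gAAVS1. The changes were -0.67, -1.85, -1.82 and -2.21 in the same order (SE 0.07 each). The groups gSMARCA4 and gARID1A_1B overlapped with each other, and gARID1A stood above and gSMARCA4_A2 below both without overlap. Genes lower without overlap made up 15.5% in gSMARCA4 against gARID1A and 17.9% in gSMARCA4_A2 against gARID1A_1B. That share was not counted for gSMARCA4_A2 against gSMARCA4, where limma called 2202 of 17936 genes lower. CD79A overlapped between gARID1A_1B and gARID1A, while MZB1 was lower in gARID1A_1B than in gARID1A, a difference of -1.18 ± 0.07 without overlap, as was so for 20.2% of genes.

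The DMSO groups show how far these levels move between control cultures. CD79A had 11.3, 12.3 and 8.15 TPM in DMSO at 8 days and 17.8, 11.5 and 14.9 TPM in DMSO at 6 hours, and the groups overlapped. The difference of DMSO at 8 days minus DMSO at 6 hours was -0.44 ± 0.15 for CD79A, -0.23 ± 0.07 for MZB1 and -0.25 ± 0.11 for CD79B. Without replicate 3 in both groups it was -0.26 for CD79A and -0.11 for MZB1. These libraries were controls in the contrasts behind the choice, so the differences are given without a test.

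**Figure D3:**
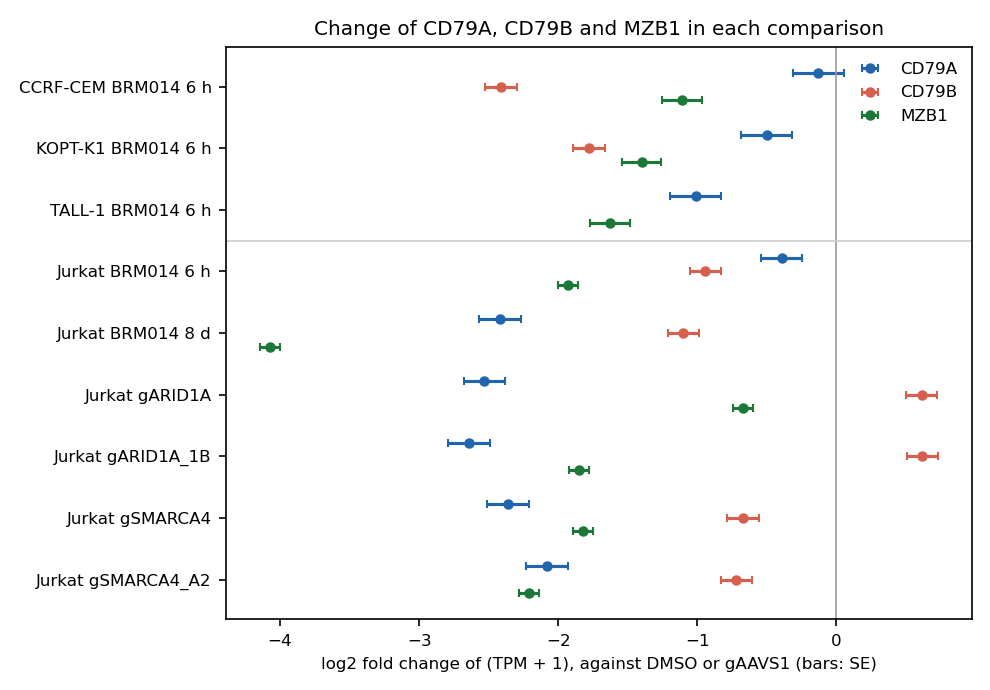
Log2 fold change of TPM + 1 with its SE for CD79A (blue), CD79B (red) and MZB1 (green) in 9 comparisons with DMSO or gAAVS1; 0 is no change. The 3 upper comparisons were tested and the 6 Jurkat comparisons are descriptions; CD79B in TALL-1 is not drawn because it was at or near 0. MZB1 is left of 0 in all 9, and CD79B is right of 0 in gARID1A and gARID1A_1B.

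Genes next to the 3 were examined with the same fit. SLC23A1, a sodium-dependent vitamin C transporter, lies 2926 bases downstream of MZB1 on the same strand. It had 5.44, 5.80 and 5.01 TPM with BRM014 at 6 hours in Jurkat and 23.7, 22.9 and 17.4 TPM with DMSO, and fell by 1.79 ± 0.12 (limma, adjusted p = 1.48e-10). It fell by 2.87 at 8 days (adjusted p = 2.81e-14), by 1.24 in gARID1A_1B (adjusted p = 5.31e-08), by 1.36 in gSMARCA4 (adjusted p = 1.42e-08) and by 1.69 in gSMARCA4_A2 (adjusted p = 1.68e-10). Its change of -0.33 in gARID1A did not pass (adjusted p = 0.0589). With BRM014 it also fell by 0.79 in CCRF-CEM (adjusted p = 0.00933), by 0.80 in KOPT-K1 (adjusted p = 0.0112) and by 1.07 in TALL-1 (adjusted p = 0.00121).

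The ratio of SLC23A1 to MZB1 in TPM, in percent, overlapped between BRM014 and DMSO libraries at 6 hours in Jurkat but not at 8 days. It was 9.55% to 10.6% with BRM014 and 7.67% to 11.7% with DMSO in Jurkat at 6 hours, 13.8% to 20.2% with BRM014 and 9.47% to 11.3% with DMSO at 8 days, and 0.57% to 1.59% in all libraries of the other 3 lines. In the guide groups the ratio was 11.4% to 12.6% in gARID1A, 13.4% to 13.8% in gARID1A_1B, 11.5% to 13.2% in gSMARCA4 and 11.1% to 12.8% in gSMARCA4_A2, against 8.65% to 10.9% in gAAVS1. All 12 BAF guide libraries were above all gAAVS1 libraries. PROB1, a proline-rich gene 510 bases upstream of MZB1, fell in all 9 comparisons, by 0.27 in KOPT-K1 (adjusted p = 0.0486) up to 0.71 in Jurkat at 6 hours (adjusted p = 1.70e-07).

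**Figure D4:**
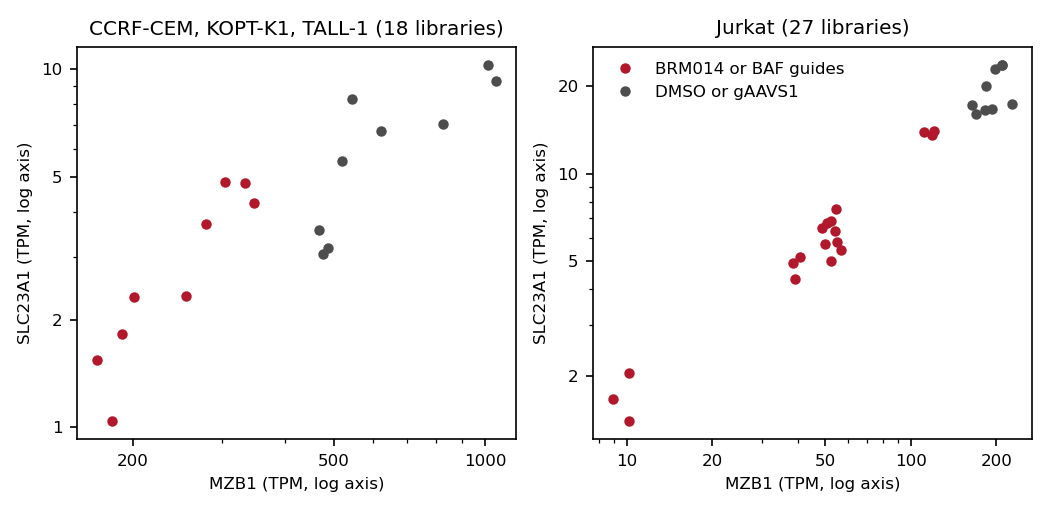
SLC23A1 against MZB1 in TPM on log axes, 1 point per library, in the other 3 lines (left) and Jurkat (right), with BRM014 or BAF guides in red and DMSO or gAAVS1 in grey. In Jurkat the points run from 8 days of BRM014 at the lower left to the controls at the upper right (Pearson r 0.982 of log2(TPM + 1) over 27 libraries).

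On either side of CD79A, RPS19, a ribosomal protein gene 4193 bases before CD79A, changed in 1 of 9 comparisons, falling by 0.17 in gSMARCA4_A2 (adjusted p = 9.39e-04). ARHGEF1, which lies 1788 bases after it, fell by 0.44 at 6 hours in Jurkat (adjusted p = 5.01e-07) and rose by 0.20 at 8 days (adjusted p = 0.00237), when CD79A was low. ARHGEF1 had 109 ± 4.62 TPM with BRM014 in CCRF-CEM, where CD79A overlapped between groups, and 184 ± 9.83 TPM with DMSO, a change of -0.76 (adjusted p = 3.04e-07). ARHGEF1 also fell by 0.70 in KOPT-K1 (adjusted p = 1.12e-06) and by 1.06 in TALL-1 (adjusted p = 7.95e-09), where CD79A fell too, and by 0.20 in gARID1A_1B (adjusted p = 0.00334). In gARID1A, gSMARCA4 and gSMARCA4_A2 its changes of -0.09, 0.02 and 0.01 did not pass (adjusted p = 0.215, 0.848 and 0.931). Beside CD79B, CSHL1 was listed at 0 in all groups. SCN4A, a muscle sodium channel gene 6199 bases from CD79B, fell by 1.08 at 6 hours (adjusted p = 5.59e-07) and by 1.78 at 8 days (adjusted p = 1.31e-10) in Jurkat, and its change of 0.10 in gARID1A did not pass (adjusted p = 0.643). SCN4A also fell by 0.62 in gARID1A_1B (adjusted p = 6.58e-04), where CD79B was above gAAVS1, by 1.18 in gSMARCA4 (adjusted p = 2.36e-07) and by 1.08 in gSMARCA4_A2 (adjusted p = 3.24e-07).

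Over the 27 Jurkat libraries SLC23A1 was the gene whose log2(TPM + 1) was most like that of MZB1, ahead of PECAM1 (Pearson r 0.975), LPXN (0.97), IL2RG (0.964) and TRAF3IP3 (0.962). For CD79A these were LOC105375541 (0.954), BEND6 (0.95), GLRB (0.946), ERGIC1 (0.945) and LOC112268134 (0.945). For CD79B they were ARHGAP9 (0.942), MTPAP (0.923), GPR65 (0.923), CCDC85C (0.921) and TMEM156 (0.919). Among the 3 genes, r was 0.666 between CD79A and MZB1, 0.621 between CD79B and MZB1 and -0.045 between CD79A and CD79B. Over the 18 libraries of the other lines, where line and treatment both enter, r was 0.868 between CD79A and CD79B, -0.128 between CD79A and MZB1 and -0.0012 between CD79B and MZB1. CD79A was there most like STIP1 (0.985), LAPTM5 (0.985) and DMC1 (0.98), CD79B most like TNF (0.992), SHANK3 (0.984) and B3GNT2 (0.983), and MZB1 most like IL16 (0.973), MLLT6 (0.968) and PRKRA (0.963). These values describe libraries that share groups and lines.

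Most of the defining markers of B cells were below 1 TPM in these lines. Of 15 defining B cell markers 14 were in the tables, and 3 to 5 of them reached a mean of 1 TPM in the DMSO and gAAVS1 groups of Jurkat, CCRF-CEM and KOPT-K1, and 1 in TALL-1. MS4A1 (CD20) was listed at 0 in all these groups. Means of PAX5 were at most 0.167 TPM there and those of EBF1 at most 0.127 TPM. PAX5 and EBF1 encode master regulators of B cell commitment. Genes of wider lists, not all of them particular to B cells, were more often present. The transcription factors among them were led by LEF1 in the Jurkat control groups. With DMSO they were led by ETS1 in CCRF-CEM and by MYB in KOPT-K1 and TALL-1. Of 18 transcription factors known from B cells, 13 had a mean of 1 TPM or more in each control group of Jurkat, and 10 in CCRF-CEM, 12 in KOPT-K1 and 11 in TALL-1 with DMSO. A further list held 23 measured genes of B cell receptor signalling, CD79A and CD79B not counted. Of these, 14 reached a mean of 1 TPM in each Jurkat control group, 12 in CCRF-CEM, 15 in KOPT-K1 and 9 in TALL-1. The markers summed to 11.1 to 26.8 TPM in the Jurkat control libraries, led by CR2, and to 219 to 247 TPM in KOPT-K1 DMSO libraries, led by IGLL1.

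Both surrogate light chain genes, which pair with the heavy chain in the pre-B cell receptor, a complex that also signals through CD79A and CD79B, were among the B-lineage genes present. IGLL1 had 31.9, 37.9 and 43.3 TPM in BRM014-treated KOPT-K1 and 200, 228 and 222 TPM in DMSO-treated KOPT-K1. It fell by 2.5 ± 0.26 (limma, adjusted p = 3.42e-06), and by 1.02 ± 0.26 in CCRF-CEM (adjusted p = 0.00507), where DMSO libraries averaged 9.86 ± 2.84 TPM. VPREB1 had 0.894, 1.32 and 0.83 TPM in BRM014-treated CCRF-CEM and between 14.3 and 15.9 TPM in DMSO-treated CCRF-CEM, and fell by 2.99 ± 0.12 (adjusted p = 7.88e-11). It was listed at 0 in every Jurkat and TALL-1 library. Of the 6 markers tested in these lines, 3 were lower and 2 higher in CCRF-CEM, 3 lower and 1 higher in KOPT-K1, and 0 either way in TALL-1, with medians of -0.51, -0.22 and 0 in that order, beside medians over all genes of 0.05, 0.04 and 0.03.

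**Figure D5:**
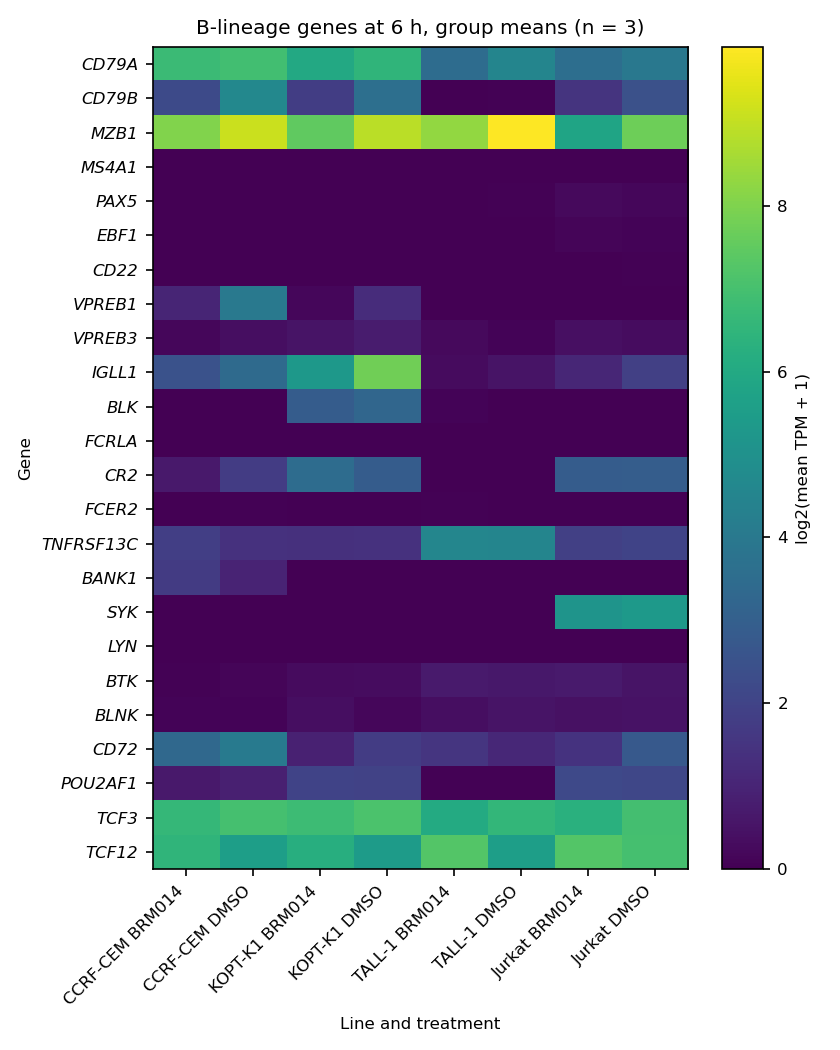
Mean level of CD79A, CD79B, MZB1, B cell markers and selected genes of receptor signalling and transcription at 6 hours, as colour on a log2(TPM + 1) scale (n = 3 per column), with BRM014 left of DMSO for each line. MZB1 and CD79A are lit in all 4 lines, IGLL1 in KOPT-K1, SYK in Jurkat, and MS4A1 in none.

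Downstream of the CD79 tails, SYK was present in Jurkat only. SYK, which binds the phosphorylated ITAMs of CD79A and CD79B, averaged 40.1 ± 6.66 TPM in Jurkat DMSO at 6 hours and at most 0.0233 TPM in the DMSO groups of the other lines. In Jurkat SYK fell by 0.60 in gARID1A (adjusted p = 3.04e-06) and rose by 0.53 at 8 days of BRM014 (adjusted p = 1.55e-06), with CD79A low in both. SYK was also lower in gARID1A_1B (33.6 ± 0.428 TPM), gSMARCA4 (36.9 ± 0.837 TPM) and gSMARCA4_A2 (36.5 ± 0.977 TPM), against 44.4 ± 1.09 TPM in gAAVS1. CD79A was low in these groups too. BTK, BLNK and LYN, a kinase, an adaptor and a SRC-family kinase of the same pathway, were below 1 TPM in the mean of every group. CD72, a B cell co-receptor, fell by 1.35 at 6 hours in Jurkat (adjusted p = 1.36e-09), fell by 0.74 in CCRF-CEM (adjusted p = 5.65e-04), fell by 0.86 in KOPT-K1 (adjusted p = 2.10e-04) and rose by 0.41 in TALL-1 (adjusted p = 0.0292). In Jurkat CD72 also fell by 0.68 at 8 days (adjusted p = 1.31e-05). It fell in every BAF guide group, by 0.51 in gSMARCA4_A2 (adjusted p = 2.89e-04) to 1.05 in gARID1A (adjusted p = 3e-07).

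Of 23 other genes of B cell receptor signalling, many of them shared with T cell receptor signalling, the Jurkat fit held 14 and the fit of the remaining lines 17. The shares of all genes called lower and higher were 20.7% and 26.8% at 6 hours in Jurkat, 23% and 36.9% at 8 days, 13.2% and 7.72% in gARID1A, 23.1% and 17% in gARID1A_1B, 15.8% and 25.1% in gSMARCA4, and 21.1% and 40.9% in gSMARCA4_A2. The shares called higher were 28.9% in CCRF-CEM, 22.9% in KOPT-K1 and 26.6% in TALL-1. At 6 hours of BRM014, 12 were lower and 0 higher in Jurkat, 9 lower and 3 higher in CCRF-CEM, 11 and 2 in KOPT-K1, and 7 and 3 in TALL-1. Their medians were -0.37, -0.12, -0.40 and -0.01, beside medians over all genes of 0.04, 0.05, 0.04 and 0.03 in the same order. At 8 days 5 were lower and 6 higher, in gARID1A 5 and 3, in gARID1A_1B 8 and 3, in gSMARCA4 8 and 4, and in gSMARCA4_A2 8 and 3, where 1 was higher after median-ratio rescaling. T cell markers moved as well. Of 13 of them 12 were lower and 0 higher at 6 hours in Jurkat, 9 and 3 in CCRF-CEM, 10 and 1 in KOPT-K1, and 7 and 2 in TALL-1, with medians of -0.73, -0.51, -0.79 and -0.23. At 8 days 6 were lower and 6 higher, in gARID1A 4 and 3, in gARID1A_1B 7 and 3, in gSMARCA4 5 and 4, and in gSMARCA4_A2 6 and 3. Their part in the counts of the receptor genes was not tested. PTPN6, a phosphatase that restrains the receptor, had a change of -2.30 at 6 hours (adjusted p = 6.72e-11) and 1.88 at 8 days (adjusted p = 4.74e-10).

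MZB1 was also set beside other genes of the endoplasmic reticulum and of plasma cells, with 16 of them in each fit. With BRM014 for 6 hours 7 were lower and 0 higher in Jurkat and in CCRF-CEM, 8 and 0 in KOPT-K1, and 3 and 1 in TALL-1. Of all genes, 20.7% were called lower in Jurkat, 20.9% in CCRF-CEM, 15.2% in KOPT-K1 and 19.3% in TALL-1. The count in TALL-1 was thus close to the share over all genes. The medians of the 16 were -0.12, -0.31, -0.41 and -0.15 in the same order, beside 0.04, 0.05, 0.04 and 0.03 over all genes. HSP90B1, the chaperone with which MZB1 works, had 577 ± 170 TPM with BRM014 and 816 ± 202 TPM with DMSO in CCRF-CEM, a change of -0.51 ± 0.20 (adjusted p = 0.0481). It fell by 0.80 ± 0.20 in KOPT-K1 (adjusted p = 0.00593), and its change of -0.11 ± 0.20 in TALL-1 did not pass (adjusted p = 0.729). At 8 days in Jurkat HSP90B1 rose by 0.31 ± 0.10 (adjusted p = 0.00727), with MZB1 18.5-fold below DMSO. Of the 16, 5 were lower and 5 higher at 8 days, 2 and 1 in gARID1A, 9 and 1 in gARID1A_1B, 5 and 2 in gSMARCA4, and 4 and 4 in gSMARCA4_A2. The shares of all genes called lower and higher were 23% and 36.9% at 8 days and 13.2% and 7.72% in gARID1A. They were 23.1% and 17% in gARID1A_1B, 15.8% and 25.1% in gSMARCA4, and 21.1% and 40.9% in gSMARCA4_A2. The gARID1A counts were thus close to the shares over all genes. After median-ratio rescaling, 3 were higher at 8 days, 1 lower in gARID1A and 1 higher in gSMARCA4. XBP1, the transcription factor of secretory cells, fell by 1.51 in CCRF-CEM (adjusted p = 1.86e-04) and by 1.45 in KOPT-K1 (adjusted p = 3.90e-04).

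Of the E proteins, which bind E-boxes in lymphoid genes, TCF3 and TCF12 moved in opposite directions, beside medians over all genes between -0.03 and 0.11. TCF3 fell in all 9 comparisons, with changes from -0.15 in gARID1A (adjusted p = 0.0242) to -0.64 with BRM014 at 6 hours in Jurkat (adjusted p = 2.48e-10). TCF12 rose in 8 of 9, by as much as 1.73 ± 0.05 in TALL-1 (adjusted p = 6.29e-12), and its change of 0.11 in gARID1A did not pass (adjusted p = 0.172). ID2, an inhibitor of E proteins, rose by 2.52 at 8 days of BRM014 in Jurkat (adjusted p = 6.67e-14) and by 2.76 in gSMARCA4_A2 (adjusted p = 2.52e-14). It also rose at 6 hours in Jurkat, in gARID1A_1B, in gSMARCA4 and in TALL-1, by 0.58 (adjusted p = 2.17e-04) to 1.43 (adjusted p = 1.43e-06). ID2 fell by 0.73 in CCRF-CEM (adjusted p = 7.81e-04), by 0.41 in KOPT-K1 (adjusted p = 0.0404) and by 0.37 in gARID1A (adjusted p = 0.0251), where CD79A was low. ID3, another inhibitor of E proteins, fell by 0.80 in CCRF-CEM (adjusted p = 5.51e-04) and by 1.32 in KOPT-K1 (adjusted p = 8.43e-06). ID3 rose by 1.16 in TALL-1 (adjusted p = 2.05e-05), by 1.14 at 8 days in Jurkat (adjusted p = 3.45e-11) and in all 4 BAF guide groups, and its change of -0.15 at 6 hours in Jurkat did not pass (adjusted p = 0.105). POU2AF1, a B cell coactivator, rose by 0.51 in gARID1A (adjusted p = 0.00284). It fell by 0.48 in gSMARCA4_A2 (adjusted p = 0.00119), by 0.34 in gSMARCA4 (adjusted p = 0.0253) and by 0.38 at 8 days (adjusted p = 0.00873). Its changes of -0.29 in gARID1A_1B (adjusted p = 0.056) and 0.07 at 6 hours in Jurkat (adjusted p = 0.668) did not pass. Any part of these factors in the levels of CD79A, CD79B and MZB1 was not tested.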

How the data were processed

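Polyadenylated RNA of 4 T-ALL lines was sequenced in 45 libraries; Jurkat used a non-directional kit and the other lines a directional one, per the labels. Per the submitters' processing notes the tools were HISAT2 2.2.1, featureCounts 2.0.3 and DESeq2 1.38.2 with build hg38. The authors deposited TPM in 1 table for Jurkat and 1 for the other lines, with a gene length per gene. Each library sums to the same total, so a few abundant genes can shift the rest. TPM times length, divided by a step per library, came out whole within 0.01 for 100% of values, and these were taken as reads; limma-voom on them was an alternative. Replicate pairs (45) all differed beyond sampling noise.

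The fits took genes that reached 1 TPM in 3 or more libraries (Jurkat, 17936; others, 16241) and used log2(TPM + 1) with limma 3.58.1 (trend and robust, all groups of a table in 1 fit) in R 4.3.3. P-values were Benjamini-Hochberg adjusted over all genes tested, with a threshold of 0.05; ± is SD for TPM and SE for log2 changes. A fold on this scale understates changes of low genes. Groups that do not overlap are those in which every library of one lies on one side of every library of the other. The code was tested on simulated data.

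The members and gene lists were chosen with earlier results of these data known. Besides the 3 genes, those named were the targeted subunits, up to 3 genes per list with the largest change in a comparison plus a fixed set of receptor, E-protein and chaperone genes, the nearest genes in GENCODE v29, and the genes most alike by Pearson r. Replicate numbers were taken to pair libraries where every correlation of departures from the group means exceeded 0.1. Only CCRF-CEM met this threshold (0.119, 0.286 and 0.447). At 6 hours in KOPT-K1, TALL-1 and Jurkat each treated library was also most alike to its own number. The lowest correlations there were 0.042, 0.033 and 0.091. Alternatives were a pseudocount of 0.1, other filters, median-ratio rescaling, mitochondrial genes left out (20.0% to 24.9% of TPM in Jurkat, 4.99% to 8.04% elsewhere), plain eBayes, only the compared groups, a replicate block, voom and leaving out libraries. Protein sequences and the CD79B promoter were not used here. Some genes of the lists are not reported here by name.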

Additional observations from a re-analysis of the deposited data

Results flagged for a closer look

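The response to BRM014 differed between lines for 2 of the 3 genes and for CR2, each by a test of the difference itself. Such differences were common, passing for 18.3% of the 16241 genes tested between CCRF-CEM and KOPT-K1 and 20.4% between TALL-1 and CCRF-CEM. For CD79B the change in CCRF-CEM was more negative than that in KOPT-K1 by -0.629 on the log2 scale (limma, adjusted p = 0.0136), in a line where CD79B started higher (23.9 TPM in CCRF-CEM DMSO, 11.2 TPM in KOPT-K1 DMSO). That difference did not pass with a pseudocount of 0.1 (adjusted p = 0.236) or in limma-voom on reads (adjusted p = 0.192). For CD79A the change in TALL-1 was more negative than that in CCRF-CEM by -0.882 (adjusted p = 0.0249), in a line where CD79A started lower (21.8 TPM in TALL-1 DMSO, 119 TPM in CCRF-CEM DMSO). It did not pass when only the compared groups were fitted (adjusted p = 0.0691) or in 6 of 12 fits that left out 1 library (adjusted p up to 0.0646). The part of the starting level in either difference was not tested. CR2, a B cell marker outside the 3 genes, had a change in CCRF-CEM below that in KOPT-K1 by -1.67 (limma, adjusted p = 6.68e-06). Alternatives were not run for CR2. It was not alone, as among the 6 B cell markers tested the change in CCRF-CEM was called higher for 3 and lower for 2.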

How the results depend on the processing

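Of 474 values of tested results under alternatives, 426 kept their direction and their side of the threshold, 32 no longer passed, 16 newly passed and 0 changed direction. All falls of MZB1 and CD79B with BRM014 in the lines that express them, and that of CD79A in TALL-1, passed throughout. With a replicate block CD79A in CCRF-CEM passed at -0.129; the block also made differences of effects pass, at 0.37 for CD79A between CCRF-CEM and KOPT-K1, -0.513 between TALL-1 and KOPT-K1 and -0.515 for MZB1 between TALL-1 and CCRF-CEM, and the CD79A level difference of 0.422 between CCRF-CEM and KOPT-K1, although replicate numbers paired libraries in CCRF-CEM only. The block changed no other call. CD79A in KOPT-K1 did not pass with a pseudocount of 0.1 (-0.505), no filter (-0.499), mitochondrial genes left out (-0.485) or without replicate 3 in both groups (-0.463), the last an alternative chosen after the data were seen. CD79B between CCRF-CEM and KOPT-K1 did not pass at -0.571 (pseudocount 0.1) and -0.555 (voom), and CD79A between TALL-1 and CCRF-CEM not at -0.882 with the compared groups only. Without replicate 3, MZB1 between TALL-1 and CCRF-CEM (-0.611) and CD79A between TALL-1 and KOPT-K1 (-0.588) passed. The level difference between CCRF-CEM and KOPT-K1 passed with the compared groups only for CD79A (0.422) and MZB1 (0.23), and for CD79A in voom (0.447). The 474 values also hold DMSO at 8 d minus 6 h in Jurkat, not used as a test because these libraries served in the choice. Part of the changed calls counted above is therefore its own. These were 5 of 10 alternatives for CD79A, 3 for MZB1 and 0 for CD79B. With 1 library left out they were 3 of 6 fits for CD79A, 3 for MZB1 and 2 for CD79B. Its value for CD79A was -0.47 (pseudocount 0.1), -0.437 (no filter), -0.401 (mitochondrial genes left out), -0.437 (compared groups only) and -0.258 (without replicate 3). For MZB1 it was -0.185, -0.231 and -0.113 under the last 3 of these. The cause was not tested.

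With 1 library left out, CD79A ranged from -0.582 to -0.441 in KOPT-K1, -1.11 to -0.691 for TALL-1 minus CCRF-CEM, -0.743 to -0.321 for TALL-1 minus KOPT-K1, 0.369 to 0.52 for the level of CCRF-CEM minus KOPT-K1 and -0.593 to -0.276 for DMSO at 8 d minus 6 h. MZB1 ranged from -0.692 to -0.377 for TALL-1 minus CCRF-CEM and from -0.34 to -0.165 for DMSO at 8 d minus 6 h, and CD79B there from -0.401 to -0.157. In Jurkat a pseudocount of 0.1 moved 10 of 18 described changes, voom 11 and median-ratio rescaling 3, all in gSMARCA4_A2, where the median over all genes was 0.11; MZB1 there was -2.37 after rescaling. Rescaling moved 8 of 90 list counts by over 1.5 times, to 1 receptor signalling gene higher in gSMARCA4_A2 (3 without rescaling), to 3 E-protein genes lower in gARID1A (5) and 1 higher in KOPT-K1 (2), to 3 reticulum genes higher at 8 d (5), 1 lower in gARID1A (2) and 1 higher in gSMARCA4 (2), and to 1 T cell ITAM receptor gene higher in gARID1A (0) and 0 in gSMARCA4_A2 (1). CD79A at 13 to 39 reads and CD79B in TALL-1 at 0 or 1 read are limited by depth.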

Other observations

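Among B-lineage surface genes outside the 3, CR2 changed in opposite directions in CCRF-CEM and KOPT-K1. The 2 changes differed by -1.67 ± 0.17 on the log2 scale (limma, adjusted p = 6.68e-06). Of the 6 B cell markers tested, CR2 among them, the change in CCRF-CEM was called higher for 3 and lower for 2. CR2 (complement receptor 2) had 0.516, 0.903 and 0.404 TPM in BRM014-treated CCRF-CEM and 2.44, 2.86 and 1.93 TPM in DMSO-treated CCRF-CEM, and fell by 1.09 ± 0.12 (limma, adjusted p = 2.27e-06). In KOPT-K1 it rose by 0.58 ± 0.12 (adjusted p = 0.00104), with 11.6, 9.28 and 9.84 TPM after BRM014 and 7.01, 6.40 and 6.02 TPM after DMSO. In Jurkat CR2 fell in all 4 BAF guide groups, by 1.36 in gARID1A (adjusted p = 1.75e-09) and by 1.76 in gARID1A_1B (adjusted p = 6.16e-12). Its change of -0.02 at 6 hours of BRM014 did not pass (adjusted p = 0.864), and at 8 days it fell by 0.64 (adjusted p = 7.86e-06). TNFRSF13C, the BAFF receptor gene, averaged 22.3 ± 1.80 TPM with BRM014 and 21.6 ± 3.25 TPM with DMSO in TALL-1, the only one of the 14 measured defining B cell markers at a mean of 1 TPM or more in the DMSO group of that line. TNFRSF13C was chosen after its values were seen.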
